A study of Mus musculus with 6 samples.

Results

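Phox2a, Th, Dbh, Chat, Slc18a3 and Gata3 are genes of autonomic and motor neurons. They were chosen by name, and all 6 were found among the 49492 gene rows of the deposited table. At stage E14.5, RNA of the mouse soft palate had been sequenced in 3 libraries from Dlx5-/- embryos and 3 from wild-type controls. Dlx5 encodes a homeodomain transcription factor of the neural crest that fills the pharyngeal arches; the sources used here do not say how its allele was made or whether each library came from its own embryo. P-values therefore measure the spread between these libraries, which may in part be technical.

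Noradrenaline is made from tyrosine in steps: tyrosine hydroxylase (Th) forms L-DOPA, Ddc turns it into dopamine, and dopamine beta-hydroxylase (Dbh) turns dopamine into noradrenaline. Acetylcholine is made by choline acetyltransferase (Chat) and loaded into vesicles by the transporter Slc18a3. Phox2a is a homeodomain factor of noradrenergic neurons, cranial parasympathetic ganglia and branchial motor neurons, and Gata3 is a zinc finger factor needed by sympathetic neurons and also used in the inner ear, skin and T cells. Parasympathetic neurons of the pterygopalatine ganglion lie close to the palate, whereas motor neurons that serve it have their cell bodies in the brainstem.

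The start regions of Th and Dbh are shown because these genes act in one pathway and gave estimates of opposite sign. Each window runs from 250 bases before to 50 bases after the RefSeq start on GRCm38.p6, read in the direction of transcription, and RefSeq windows were found for 6 of 6 genes. The Th window lies on the minus strand at chr7:142899946-142900245, and the Dbh window on the plus strand at chr2:27165257-27165556. All of the Dbh window lies inside the GENCODE gene, which starts at 27165233, so RefSeq and GENCODE place the start of Dbh differently. Capitals mark ATTA on either strand, the core bound by many homeodomain proteins, and TGACGTCA, the cyclic AMP response element.
Th: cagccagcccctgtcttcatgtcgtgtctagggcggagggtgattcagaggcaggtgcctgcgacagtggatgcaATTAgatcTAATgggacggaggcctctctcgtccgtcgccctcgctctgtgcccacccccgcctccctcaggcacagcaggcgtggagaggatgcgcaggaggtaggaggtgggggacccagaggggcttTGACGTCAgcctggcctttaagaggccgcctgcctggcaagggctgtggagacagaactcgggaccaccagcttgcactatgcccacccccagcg
Dbh: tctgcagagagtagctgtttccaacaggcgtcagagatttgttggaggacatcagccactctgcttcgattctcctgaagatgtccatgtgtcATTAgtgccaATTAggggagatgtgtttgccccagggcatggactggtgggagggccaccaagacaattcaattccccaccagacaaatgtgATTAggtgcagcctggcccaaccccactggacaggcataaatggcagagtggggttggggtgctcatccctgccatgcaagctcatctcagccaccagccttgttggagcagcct
The Th window held 2 matches to ATTA and 1 to TGACGTCA. The first and last bases of TGACGTCA lay at -45 and -38, counted from the start. The Dbh window held 3 matches to ATTA and 0 to TGACGTCA. Of 32851 RefSeq windows, 58.0% held ATTA and 1.79% held TGACGTCA, on either strand. Among the other windows, Slc18a3 held 1 match to ATTA, and Phox2a, Chat and Gata3 held 0. The longer homeodomain motif TAATTA, which contains ATTA and was in 5.29% of all windows, was in none of the 6. GATAA, a motif of GATA factors, was in the Phox2a window alone (25.4% of all windows), and CANNTG, the E-box, was in all 6 (72.3% of all windows).

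The knockout libraries held 8741020, 10541150 and 11492409 estimated counts, and the control libraries 9554906, 11922442 and 6891798. A single count was worth 0.0760 to 0.142 CPM, the counts scaled to a common library size with trimmed mean of M values (TMM) factors. Dlx5 itself had 7, 15 and 17 counts in knockouts and 242, 193 and 113 in controls. It fell by 3.92 on the log2 scale (SE 0.32; adjusted p = 0.0203, edgeR quasi-likelihood test with Benjamini-Hochberg adjustment over 16218 genes), and all 6 libraries matched their labels. That p ran from 1.78e-22 to 0.102 over 17 alternative settings, and the call was lost when knockout replicate 1 (0.101), knockout replicate 2 (0.0685) or control replicate 3 (0.102) was left out. Regulators of palatal mesenchyme were present in every library: Osr2 measured 22.2 ± 3.22 CPM in knockouts and 17.6 ± 3.39 CPM in controls, and Pax9 25.6 ± 2.25 and 40.6 ± 8.41 CPM (SD, n = 3 each). Knockout replicate 3 stood apart, with a mean correlation of 0.959 with the other libraries, against 0.970 to 0.976 for the rest, and it held brain transcripts, given beside Dbh and Chat. Control replicate 1 held inner ear transcripts that the other controls lacked, given beside Gata3.

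Of the 6 genes, 5 passed the filter of a mean of at least 1 CPM over all libraries. Chat did not, and Dbh passed through the knockout libraries, its control mean being 0.838 CPM. With edgeR 0 of 5 were past the threshold of an adjusted p of 0.05, as 0.00617% of all genes tested were. At an unadjusted p under 0.05, Th was lower in the knockout (6.78% of all genes) and Gata3 higher (6.08%). Without knockout replicate 3 these shares were 8.13% and 5.21%, and without control replicate 1 they were 6.43% and 5.45%. List counts below are to be read beside them. DESeq2 called 1, Th, among 501 of 16218 genes, and it gave no adjusted p for Dbh and Slc18a3. With limma-trend and limma-voom 0 of the 5 were called. Without a filter on low counts, edgeR called 2, Th and Gata3, among 679 of 29870 genes. The median log2 fold change of the 5 was -0.31, and of all genes tested 0.03. The median of the 5 lay above 0 without knockout replicate 1 (0.0598) and without control replicate 3 (0.0348), so it gives no direction for the genes together.

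**Figure D1:**
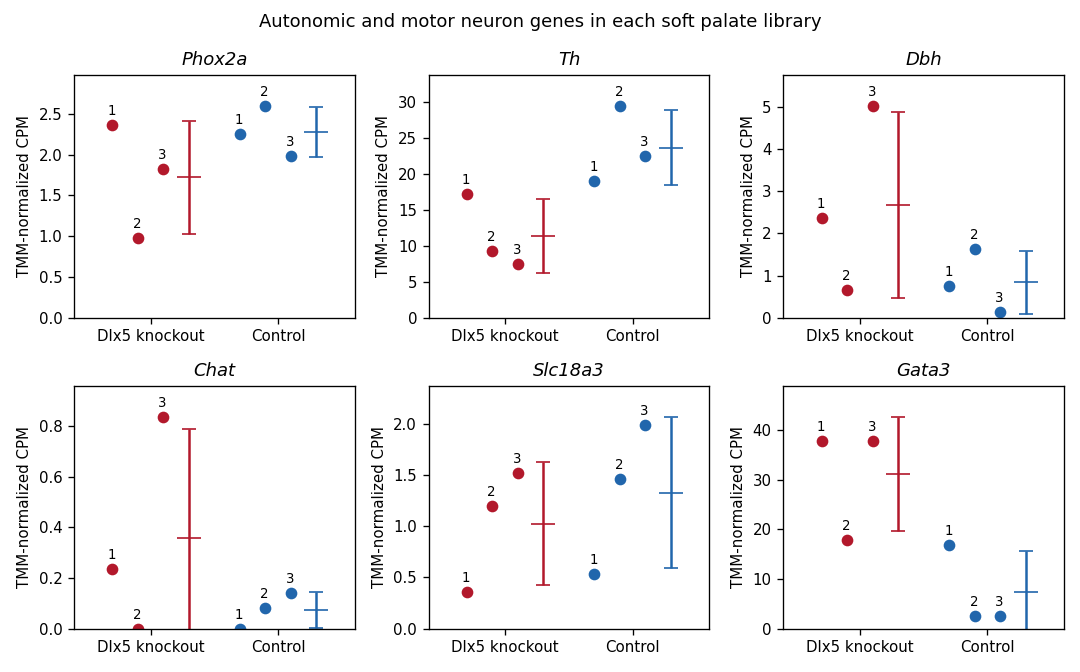
TMM-normalized CPM (vertical axis, a scale of its own in each panel) in each Dlx5 knockout and control library; numbers are replicates, the horizontal mark is the mean and the bar the SD of 3 libraries, ended at 0. Th is lower and Gata3 higher in every knockout library than in every control library, while Phox2a, Dbh, Chat and Slc18a3 overlap.

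Th, the first and rate-limiting enzyme of the noradrenaline pathway, had 146, 86 and 99 counts in knockout libraries, against 178, 363 and 159 in controls. That is 17.3, 9.34 and 7.52 CPM in knockouts and 19.1, 29.4 and 22.6 CPM in controls. Every knockout library lay below every control library, as for 9.14% of all genes, and knockout replicate 1 came close to control replicate 1. At -1.08 (SE 0.30; 95% confidence interval -1.78 to -0.38), the log2 fold change stayed short of the threshold, with an adjusted p of 0.174 (edgeR). The estimate was below 0 in all 17 alternative settings, with an adjusted p from 0.00449 to 0.519. The call appeared with no filter (adjusted p = 0.00449, edgeR) and with DESeq2 (adjusted p = 0.0142). The gene lies on chromosome 7 from 142892752 to 142931128, minus strand (GENCODE M21, GRCm38), a span that holds a second transcript starting far upstream of the main one.

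Most neuron markers moved with Th. The summed level of 20 pan-neuronal genes was 2614 to 3352 CPM in knockouts and 4797 to 6113 CPM in controls. That of 19 sensory ganglion genes was 493 to 659 CPM in knockouts and 885 to 1024 CPM in controls. Nefm and Nefl weighed most in the pan-neuronal sum, with control means of 1266 and 850 CPM. In its genes Snap25, Syt1, Map2 and Celf3 the groups overlapped and knockout replicate 3 was highest. Snap25 had 157 CPM there, against 51.1 to 63.3 CPM in controls. Set against the pan-neuronal sum, Th made up 5.15, 3.18 and 2.88 CPM per 1000 CPM in knockouts, against 3.98, 4.81 and 4.65 in controls. Per 100 CPM of the sensory ganglion sum, the values were 2.72, 1.42 and 1.52 in knockouts, against 2.14, 2.87 and 2.55 in controls. On both of these scales the groups overlapped: knockout replicate 1 was within or above the controls, and knockout replicates 2 and 3 were below them. In bulk RNA, fewer neurons and less RNA per neuron cannot be told apart.

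The genes whose profile over the 6 libraries was most like that of Th were P2rx3, an ATP-gated channel of sensory neurons, Sncg, a synuclein of peripheral neurons, and Parvb, an adhesion protein. The measure was the root mean square difference of centred log2(CPM + 1) values among 11421 genes, and it was 0.13 for P2rx3, 0.18 for Sncg and 0.18 for Parvb. P2rx3 had 24.6, 16.9 and 10.6 CPM in knockouts, against 31.7, 41.7 and 32.2 CPM in controls.

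Dbh, the enzyme that defines noradrenergic cells, did not follow Th. It had 20, 6 and 66 counts in knockouts, against 7, 20 and 1 in controls, or 2.36, 0.652 and 5.01 CPM in knockouts and 0.751, 1.62 and 0.142 CPM in controls. Knockout replicate 3 held most of the knockout counts, knockout replicate 2 lay below 2 of the controls, and the groups overlapped. The estimate was 1.59 on the log2 scale (SE 0.82; 95% confidence interval -0.29 to 3.47; adjusted p = 0.457, edgeR). It dropped to 0.70 when knockout replicate 3 was left out and reached 2.50 when control replicate 2 was. Per kilobase of transcript, Dbh amounted to 9.82%, 5.0% and 47.8% of Th in knockouts, against 2.82%, 3.95% and 0.451% in controls, a ratio chosen after its values were seen and given as a description. Dbh lies on chromosome 2 from 27165233 to 27183200, plus strand.

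Sympathetic and brain markers moved with Dbh in knockout replicate 3. The noradrenaline transporter gene Slc6a2 had 10, 0 and 28 counts in knockouts, against 3, 9 and 2 in controls, and did not pass the filter. Hand2, a sympathetic factor that arch mesenchyme also uses, measured 3.31, 5.54 and 23.4 CPM in knockouts, against 5.15, 5.18 and 6.25 CPM in controls. Its relative Hand1 had 1, 0 and 31 counts in knockouts and 0 in each control. The 20 genes of the brain list summed to 268, 203 and 978 CPM in knockouts, against 268, 264 and 306 CPM in controls, with none at 0 in all libraries. Gfap, an astrocyte gene of that list, had 535 counts in knockout replicate 3 and 5 to 20 in each other library. Hand1 and Hand2 were named after their values had been seen. The part of such tissue in the Dbh estimate was not tested.

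Genes with the profile most like Dbh, in 11422 compared, were Ppp1r17, a phosphatase inhibitor of Purkinje neurons (root mean square difference 0.21), the potassium channel gene Kcnt1 (0.30) and the calcium-binding protein gene Calb1 (0.33). Ppp1r17 measured 7.68, 1.96 and 14.6 CPM in knockouts, against 2.68, 6.24 and 1.56 CPM in controls. As for Dbh, knockout replicate 3 was highest and control replicate 2 was the highest control.

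**Figure D2:**
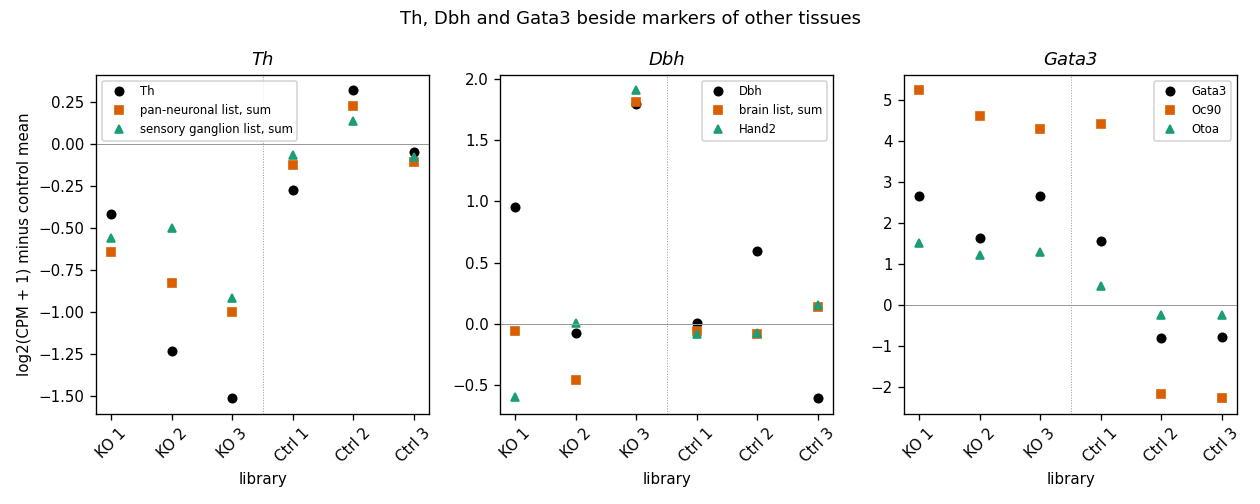
log2(CPM + 1) minus the control mean (vertical axis) for Th, Dbh and Gata3 in each library, beside summed marker lists or single marker genes. Th lies with the neuron sums below the controls in knockouts, Dbh is highest in knockout replicate 3 with the brain list and Hand2, and Gata3 and Oc90 are both low in control replicates 2 and 3.

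The other steps of noradrenaline synthesis, storage and breakdown were read from a list of 10 genes, of which 7 passed the filter. No gene of the list passed the adjusted test. At an unadjusted p under 0.05 there was 1 lower (Th, 6.78% of all genes) and 1 higher (Ddc, 6.08%). Without knockout replicate 3, and likewise without control replicate 1, there was 1 lower and 0 higher. The median log2 fold change was -0.30, and it became -0.49 when knockout replicate 1 was left out, -0.07 when knockout replicate 3 was and -0.16 when control replicate 3 was. Without a filter on low counts it was above 0, at 0.45. Ddc, which makes dopamine and, in other cells, serotonin, had 4.02, 4.02 and 5.62 CPM in knockouts, against 2.36, 3.16 and 1.70 CPM in controls. Every knockout library exceeded every control, as for 10.2% of all genes, and the difference was 0.90 on the log2 scale (SE 0.32; adjusted p = 0.281, edgeR). Gch1, which makes the cofactor of Th, averaged 0.819 ± 0.148 CPM in knockouts and 1.33 ± 0.456 CPM in controls (SD, n = 3 each). The vesicular transporter Slc18a2 averaged 3.53 ± 1.17 CPM in knockouts and 4.39 ± 0.959 CPM in controls, and the degrading enzyme Maoa 26.1 ± 4.93 and 26.1 ± 0.606 CPM. The groups of all 3 overlapped (Slc18a2 and Maoa were named after their values were seen). Slc18a1, a vesicular transporter of chromaffin cells, and Pnmt, which makes adrenaline, had at most 5 counts in any library.

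Chat and Slc18a3 form one locus on the minus strand of chromosome 14 (Chat from 32408203 to 32465989, Slc18a3 from 32462438 to 32464850). Slc18a3 has 1 exon and lies between the first exon of Chat, which ends 0.183 kb from the gene's start, and the second, which begins at 5.08 kb. Reads of unspliced Chat RNA and of Slc18a3 on this stretch run in the same direction, and the sources used here do not say how the counting treated them. The antisense gene Gm2990 overlaps the start of Chat over 948 bases.

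**Figure D3:**
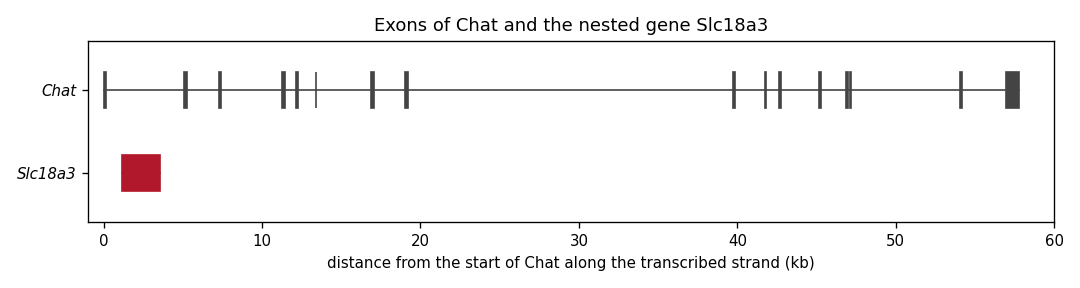
Exons of Chat (transcript Chat-201, 16 exons, grey) and of Slc18a3 (1 exon, red), as distance in kb from the start of Chat along the transcribed strand (horizontal axis). The whole of Slc18a3, from 1.14 to 3.55 kb, falls in the first intron of Chat.

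Chat was close to the limit of counting. It had 2, 0 and 11 counts in knockouts and 0, 1 and 1 in controls, where 3 counts in a library correspond to 0.228 to 0.426 CPM. Of the 13 knockout counts 11 were in knockout replicate 3, the library with brain transcripts. The ratio of summed counts, adjusted for depth, was 6.05 in knockouts over controls (exact 95% interval 1.37 to 55.2, covering counting error only). In the fit without a filter the adjusted p was 0.710 (edgeR), and the log2 fold change of 2.22, which depends on the prior count at such levels, was 0.60 without knockout replicate 3.

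Slc18a3, the vesicular acetylcholine transporter, had 3, 11 and 20 counts in knockouts, against 5, 18 and 14 in controls. This amounts to 0.355, 1.19 and 1.52 CPM in knockouts and 0.537, 1.46 and 1.99 CPM in controls. In each group replicate 1 was lowest, and the groups overlapped throughout. The estimate of -0.31 on the log2 scale (SE 0.64; 95% confidence interval -1.77 to 1.15; adjusted p = 0.887, edgeR) turned to 0.06 without knockout replicate 1 and to 0.03 without control replicate 3. The most similar profiles were those of Arhgap27 (root mean square difference 0.10), Dsc3 (0.11) and Zfp775 (0.17), at a level of Slc18a3 where 1 read moves the profile.

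The cholinergic list held 7 genes, of which 6 passed the filter, all with estimates below 0. The median was -0.29, and it was -0.47 without knockout replicate 3, -0.50 without control replicate 1 and -0.19 without control replicate 2. None passed the adjusted test, and 0 were under an unadjusted p of 0.05 (1 lower without knockout replicate 3, 0 without control replicate 1). Slc5a7, the choline transporter that supplies the neuron, measured 3.66, 2.06 and 2.73 CPM in knockouts, against 3.65, 5.27 and 4.40 CPM in controls, with knockout replicate 1 level with control replicate 1. The estimate was -0.66 on the log2 scale (SE 0.31; adjusted p = 0.419, edgeR). Acetylcholinesterase (Ache) had a log2 fold change of -0.26, its membrane anchor Prima1 of -0.47 and the widespread choline transporter Slc44a1 of -0.10.

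Mnx1 and Olig2, genes of motor neurons and their progenitors, were scarce, while Isl2, Lhx3 and Nkx6-1 of the same list were counted in every library. Mnx1, the homeobox gene of somatic motor neurons, had 0 counts in every knockout library, which allows up to 0.228 to 0.355 CPM, and 0, 2 and 3 counts in controls. Olig2, which marks their progenitors, had 1, 0 and 18 counts in knockouts, against 0, 1 and 10 in controls; Mnx1 and Olig2 were picked with their values known. Of 15 genes on the list 10 passed the filter, with 5 lower (6.78% of all genes) and 1 higher (6.08%) at an unadjusted p under 0.05. There were 0 past the adjusted threshold, and the median was -0.59 (-0.37 without knockout replicate 3). Onecut2 had a log2 fold change of -0.89, Isl2 of -0.75 and Nkx6-1 of 1.85. Lhx4 had 0, 1 and 8 counts in knockouts, against 9, 35 and 11 in controls, and it passed the filter through the controls alone. Lhx3 and Lhx4 also act in the pituitary, Isl2 and Onecut2 in other neurons, and Aldh1a2, Foxp1 and Slit3 of this list in mesenchyme. The name motor neuron for Chat and Slc18a3 thus rests on what these genes do. Mnx1 and Olig2 were scarce, and Lhx3, Isl2 and Onecut2 are not particular to motor neurons.

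Phox2a had 20.2, 8.63 and 23.8 estimated counts in knockouts, against 21.3, 32.2 and 14.2 in controls. The levels were 2.36, 0.978 and 1.82 CPM in knockouts and 2.25, 2.59 and 1.99 CPM in controls. Knockout replicate 2 was lowest, knockout replicate 1 lay within the controls, and the groups overlapped. The estimate was -0.41 on the log2 scale (SE 0.41; 95% confidence interval -1.35 to 0.52; adjusted p = 0.724, edgeR), with a range of -0.68 without knockout replicate 1 to -0.16 without knockout replicate 2. Phox2a lies on chromosome 7 from 101818313 to 101822726, plus strand, and its end overlaps Inppl1 on the opposite strand over 95 bases. The sources used here do not say whether reads there were told apart by strand. The profiles nearest to Phox2a were those of Isca2, which acts in iron-sulfur cluster assembly (root mean square difference 0.06), Tbc1d9 (0.10) and Harbi1 (0.11).

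Gata3 had 319.8, 165 and 497 estimated counts in knockouts, against 158, 31 and 18 in controls. Levels were 37.8, 17.9 and 37.7 CPM in knockouts and 17.0, 2.51 and 2.56 CPM in controls. Every knockout library exceeded every control, as for 10.2% of all genes, but knockout replicate 2 and control replicate 1 were nearly level. Control replicate 1 stood well above the other 2 controls. At 2.08 (SE 0.66; 95% confidence interval 0.57 to 3.60), the log2 fold change missed the threshold, with an adjusted p of 0.227 (edgeR). It passed with no filter (adjusted p = 0.00164, edgeR). Without control replicate 1 the log2 fold change was 3.62 (adjusted p = 0.0627, edgeR), the upper end of a range of 1.63 to 3.62 over 17 settings, in which the adjusted p ran from 0.00164 to 0.537. Gata3 lies on chromosome 2 from 9857078 to 9890034, minus strand, and overlaps the antisense genes Gm13256 and 4930412O13Rik and, on its own strand, 9230102O04Rik.

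Inner ear genes had the same pattern over libraries as Gata3. Oc90, which encodes the main otoconial protein of the inner ear, measured 182, 117 and 94.9 CPM in knockouts, against 103, 0.0810 and 0 CPM in controls. Otoa, another inner ear gene, had 20, 16 and 25 counts in knockouts, against 6, 0 and 0 in controls. Oc90 was named after its values had been seen. Both genes were thus at or near 0 in control replicates 2 and 3, the libraries in which Gata3 was low. The genes with the profile most like Gata3 were Pou3f4 (root mean square difference 0.34), Tecta (0.36) and Otog (0.44). Tecta and Otog encode proteins of the membranes over inner ear hair cells, and Pou3f4 acts in mesenchyme around the ear and in brain. Otog measured 14.4, 9.56 and 12.7 CPM in knockouts, against 10.8, 0.0810 and 0 CPM in controls.

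Of the otic list of 10 genes, 8 passed the filter. Without control replicate 1, 7 of these were higher at an unadjusted p under 0.05 (5.45% of all genes). That control held inner ear transcripts that the other controls lacked, so a rise without it was fixed in advance and is no support. With all libraries 4 were higher (6.08% of all genes) and 0 lower (6.78%), and none passed the adjusted threshold. Of these 4, Hmx2, Otoa and Pax2 passed the filter through the knockout libraries alone, with control means of 0.346, 0.215 and 0.876 CPM, so the count is a description and no support. The sum of the list was 209 to 321 CPM in knockouts and 109 to 221 CPM in controls, and the groups overlapped. No gene of it was at 0 in all libraries. The part of inner ear tissue in the Gata3 estimate was not tested.

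Gata3 is also used in epithelium and in T cells, whose markers are given here; their part in the Gata3 estimate was not tested. The 12 epithelial genes summed to 250.1 to 316 CPM in knockouts and 260.1 to 398 CPM in controls. At an unadjusted p under 0.05, 0 were higher (6.08% of all genes) and 2 lower (6.78%). Of 12 genes of T cells and innate lymphoid cells, 5 passed the filter and 0 were under that p. Their sum was 24.2 to 63.0 CPM in knockouts and 25.1 to 33.6 CPM in controls. The T cell receptor component Cd3e had at most 0.109 CPM in any library. The high end of the knockout sum came from Thy1, also a neuron gene, at 45.1 CPM in knockout replicate 3.

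**Figure D4:**
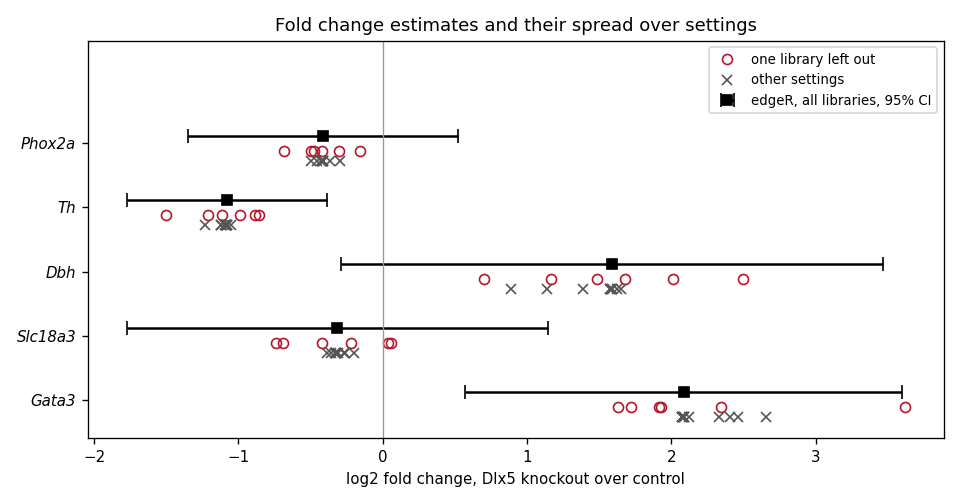
log2 fold change of the 5 genes that passed the filter, Dlx5 knockout over control (horizontal axis), with squares and 95% confidence intervals from edgeR, circles for fits with 1 library left out and crosses for other settings. Th stays below 0 and Dbh and Gata3 above 0 in all settings shown, while Slc18a3 crosses 0 in 2 of them.

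Levels of different genes were compared per kilobase of transcript. In knockouts the order was Gata3 (9.69 ± 3.57 CPM per kb), Th (6.22 ± 2.83), Phox2a (1.07 ± 0.434), Dbh (1.05 ± 0.861), Slc18a3 (0.424 ± 0.249) and Chat (0.125 ± 0.151; SD, n = 3 each). In controls it was Th (13.0 ± 2.87 CPM per kb), Gata3 (2.28 ± 2.59), Phox2a (1.42 ± 0.188), Slc18a3 (0.550 ± 0.304), Dbh (0.328 ± 0.291) and Chat (0.0260 ± 0.0249; SD, n = 3 each). Among neighbours in the knockout order, only Th and Phox2a did not overlap. In the control order, Th stood clear of Gata3, and Phox2a of Slc18a3. The lowest Dbh value exceeded the highest Chat value only through transcript length: both came from control replicate 3, with 1 count of each. The libraries of the other neighbours overlapped.

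Among the 14 transcription factors of the autonomic list, 13 passed the filter and 0 passed the adjusted test. At an unadjusted p under 0.05, 3 were higher (6.08% of all genes) and 3 lower (6.78%). The median of 0.19 became 0.30 without knockout replicate 2 and -0.32 without knockout replicate 3. Gata2, which acts with Gata3 in sympathetic neurons, measured 23.8, 18.5 and 18.1 CPM in knockouts, against 13.5, 7.37 and 11.9 CPM in controls (log2 fold change 0.89, SE 0.23; adjusted p = 0.154, edgeR). Hmx2, a homeobox gene of the inner ear, had a log2 fold change of 2.42 (adjusted p = 0.0756, edgeR) and belonged to the otic list too; it passed the filter through the knockout libraries alone. Isl1, a LIM homeobox gene of motor, sympathetic and sensory neurons, measured 65.6, 45.2 and 49.5 CPM in knockouts, against 81.3, 100.04 and 77.8 CPM in controls (log2 fold change -0.70; adjusted p = 0.0999, edgeR). Insm1, a zinc finger factor of neuroendocrine precursors, had a log2 fold change of -0.71. In each of these 4 genes the groups did not overlap, as for 19.4% of all genes in either direction. They were picked for the smallest p-values of the list, so this adds no support.

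Receptors, peptides and granule proteins of autonomic neurons were measured for 20 of 20 genes. At an unadjusted p under 0.05, 10 were lower (6.78% of all genes) and 2 higher (6.08%). Both counts were the same with knockout replicate 3 left out (8.13% and 5.21% of all genes). The adjusted test was passed by 0. Of the 2 higher genes, Sst passed the filter through the knockout libraries alone, with 11, 17 and 103 counts in them. The median was -0.46. Ret, the receptor of glial cell line-derived neurotrophic factors, had 38.2, 55.9 and 23.4 CPM in knockouts, against 86.8, 114 and 94.1 CPM in controls (log2 fold change -1.34, SE 0.27; adjusted p = 0.0880, edgeR). The secretory granule genes Chga and Scg2 had log2 fold changes of -0.80 and -0.76. These genes are shared with sensory neurons: in the sensory ganglion list 13 of 17 genes that passed the filter were lower and 0 higher at an unadjusted p under 0.05, among them Prrxl1 (also called Drgx) at -1.12 and Pou4f1 at -0.86. In the pan-neuronal list the count was 16 of 20, with a median of -0.74.

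**Figure D5:**
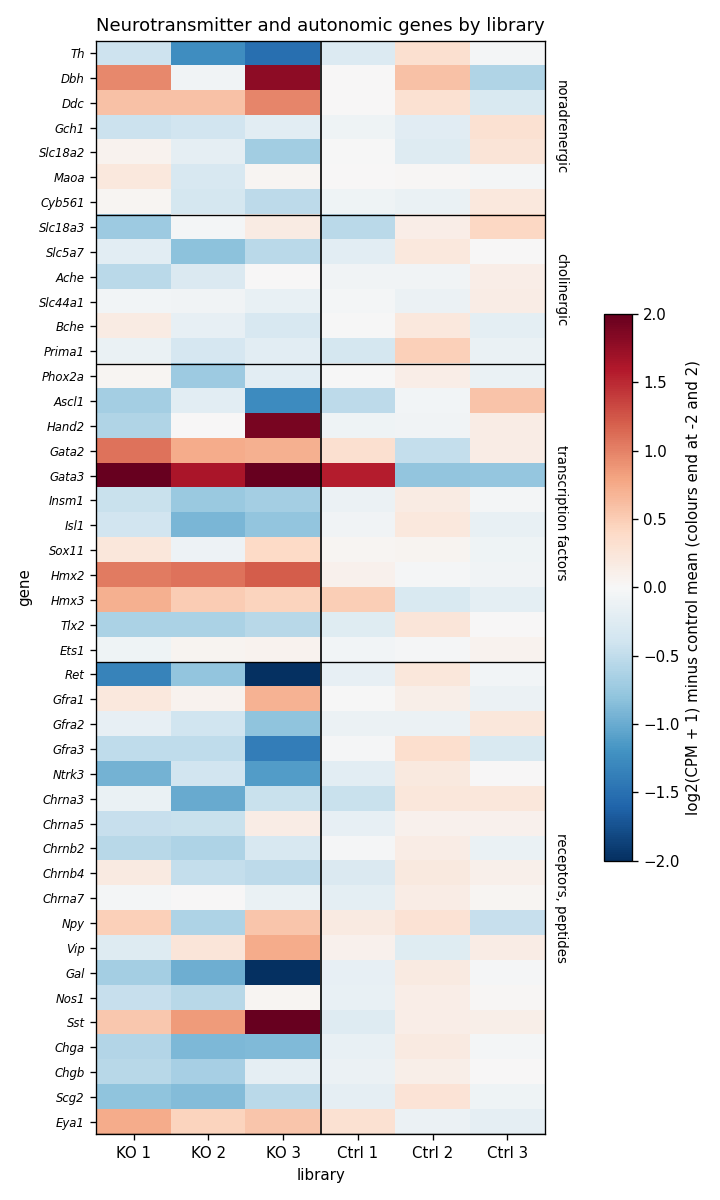
log2(CPM + 1) minus the control mean (colour, ending at -2 and 2) for genes of the noradrenergic, cholinergic, transcription factor and receptor lists that passed the filter (rows), in each library (columns, 3 knockouts left of 3 controls). Ret, Isl1 and Chga are blue in all 3 knockouts, Gata3 is red in all 3 knockouts and in control replicate 1, and Dbh and Hand2 are reddest in knockout replicate 3.

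The remaining lists show what else was in the samples. Schwann cell and satellite glia genes had 3 lower and 0 higher of 14 at an unadjusted p under 0.05. Over all genes 6.78% were lower and 6.08% higher at that p, the shares for the lists that follow too. Brain catecholamine neuron genes had 5 higher and 0 lower of 9 that passed the filter, but 2 higher and 1 lower without knockout replicate 3 or without control replicate 1. Of those 5, Lmx1a and Lmx1b had the smallest p-values, and, being picked that way, they add no support. Lmx1a measured 8.75, 6.41 and 7.82 CPM in knockouts, against 2.47, 2.51 and 2.27 CPM in controls (log2 fold change 1.65; adjusted p = 0.0591, edgeR). Lmx1b measured 6.62, 1.85 and 3.65 CPM in knockouts, against 1.18, 1.05 and 1.28 CPM in controls (log2 fold change 1.78; adjusted p = 0.167, edgeR). Foxa2 passed the filter through the knockout libraries alone. Drd2 passed it through knockout replicate 3 alone, with 63 counts there and at most 2 in any other library. Their dopamine transporter gene Slc6a3 had at most 0.284 CPM in any library. Of 10 hindbrain Hox genes and partners 5 passed the filter, among them Hoxa3 and Hoxb3 through the knockout libraries alone. Hoxa3 had 2, 7.31 and 64.4 estimated counts in knockouts and Hoxb3 8.89, 3.65 and 65, against at most 1 of either in any control. Hoxa2 was at 5.55, 5.0 and 18.4 CPM in knockouts, against 1.61, 1.70 and 0.710 CPM in controls. In the brain list 4 were higher and 2 lower of 18, and 1 higher and 4 lower without knockout replicate 3. Gfap, among the 4 higher, passed the filter through the knockout libraries alone, with 20, 5 and 535 counts in them.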

How the data were processed

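The deposited table gives estimated counts per gene, made by the authors with STAR 2.4.1d and Partek on mm10, per the submitters' processing notes. The sources used here do not state the annotation, how reads were counted or whether strand was used. The columns were not scaled to a common total, and 64.5% of values above 0.5 were whole within 0.001. The table holds 1 column that fits no sample in the labels, and it was left out.

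Estimated counts were rounded, and genes with a mean of at least 1 CPM before TMM were kept (16218). Knockouts were compared with controls by the quasi-likelihood test of edgeR 4.0.16 under R 4.3.3, with TMM factors and p-values adjusted by Benjamini-Hochberg over all genes at 0.05. It was tested on simulated data. SEs come from the F statistic. DESeq2 1.42.0 and limma 3.58.1 were alternatives, with other factors, filters, a replicate block and each library left out. Positions, overlaps and transcript lengths came from GENCODE M21 on GRCm38 (mm10), and promoters from RefSeq (GRCm38.p6). Named genes were the 6 members, up to 4 per list with the smallest p-values, and for each member the 3 nearest profiles among genes of at least 5 CPM, without predicted and ribosomal genes. The 6 genes, the 14 lists and the tests were chosen with earlier results of these data known. The sensory list holds 1 gene under 2 names, of which 1 is in the table. The lists hold 2 genes that are counted in them but not reported here.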

Additional observations from a re-analysis of the deposited data

How the results depend on the processing

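The count of the 6 genes past the threshold was 0 in 16 of 18 alternatives, 2 with no filter and 1 with DESeq2, and 0 with any library left out. The count over all genes was 1 with all libraries (edgeR), 41 with library totals in place of TMM, 679 with no filter, 501 with DESeq2, 58 with limma-trend at a pseudocount of 0.5, 0 with limma-voom, and 287 at an adjusted p of 0.1. With 1 library left out the count ran from 0 (without knockout replicate 1 or 2 or control replicate 3) to 144 (without knockout replicate 3), with 6 without control replicate 1 and 4 without control replicate 2. An unadjusted p under 0.05 was found for 2086 genes. The Slc18a3 estimate of -0.31 turned to 0.0598 without knockout replicate 1 and to 0.0348 without control replicate 3, and its lowest value with 1 library left out was -0.74. The Dlx5 call was lost with limma-voom (adjusted p = 0.0558) and with the replicate block (adjusted p = 0.0685). With a replicate block, 0 genes were called in place of 1; same-numbered libraries did not deviate together (r = -0.01, -0.01 and 0.02), and each knockout library correlated best with a control of another number, so the numbers were not taken as pairs. The cause of these differences was not tested. At these depths Chat, Dbh and Slc18a3 rest on 0 to 66 counts a library, so the intervals of Dbh and Slc18a3 span more than 2 log2 units and small differences were not detectable. The list counts without knockout replicate 3 or control replicate 1 were added after seeing the data.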
